A study of Mus musculus with 10 samples.

Results

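Emx1, Emx2, Lhx2, Dmrta2, Dmrt3, Pax6, Nr2f1 and Nr2f2 are transcription factors that divide the embryonic cortex into regions. They were taken by gene symbol from the deposited expression table of the mouse telencephalon, the forebrain vesicle that forms cortex and basal ganglia, and all 8 symbols of the rule have a row among the 14796 named genes. RNA from 10 telencephalon samples of embryonic day 12 had been sequenced. In the null set there were 2 wild-type samples (1 and 3) and 2 samples with a null allele of Polr1a (2 and 11). The missense set held 3 wild types (1, 2 and 4) and 3 samples with the C1559F missense allele (3, 6 and 7). The 2 sets differ in the first number of their titles. RNA polymerase I, which makes ribosomal RNA, has the Polr1a product as its largest subunit. The labels give no strain, zygosity or litter, do not say what the title numbers stand for, and do not say that samples came from separate animals, so the p-values measure only the spread between these samples. Mutants were set against wild types of the same set.

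The cortical primordium is patterned by signals from its edges. Wnt and Bmp proteins come from the cortical hem at the dorsal midline, Fgf proteins from the anterior forebrain, and further signals from the antihem at the border with the ventral telencephalon. Progenitors translate these signals into graded transcription factor levels. Emx2, Emx1, Lhx2, Dmrta2 and Dmrt3 are strongest toward the medial and caudal side, Pax6 is strongest toward the lateral and rostral side, and Nr2f1 is strongest caudolaterally. Lhx2 also separates cortex from hem, and Pax6 from the ventral telencephalon. RNA of a whole telencephalon holds the sum over such gradients, and in it fewer cells of a type and less RNA per cell cannot be told apart.

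The stretches of DNA just before 4 of these genes are shown because they differ in base composition and because none of their bases lies in an annotated exon of the gene. Each is the 250 bases before a RefSeq transcription start of the build GRCm38.p6, which is not the build of the expression table (GRCm39), read 5′ to 3′ along the gene's strand. Capitals mark matches, on either strand, to GGGCGG (the GC box bound by Sp factors) or CTTTGA (a core of TCF/LEF sites of the Wnt pathway). The window of Lhx2 is chr2:38339031-38339280 on the plus strand and that of Pax6 is chr2:105668646-105668895 on the plus strand. The window of Dmrta2 is chr4:109977775-109978024 on the plus strand and that of Nr2f2 is chr7:70366747-70366996 on the minus strand.
Lhx2: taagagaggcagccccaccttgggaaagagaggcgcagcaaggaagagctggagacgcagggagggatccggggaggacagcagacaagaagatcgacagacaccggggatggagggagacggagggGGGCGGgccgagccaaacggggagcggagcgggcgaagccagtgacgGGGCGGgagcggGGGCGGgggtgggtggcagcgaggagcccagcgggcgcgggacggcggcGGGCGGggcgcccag
Pax6: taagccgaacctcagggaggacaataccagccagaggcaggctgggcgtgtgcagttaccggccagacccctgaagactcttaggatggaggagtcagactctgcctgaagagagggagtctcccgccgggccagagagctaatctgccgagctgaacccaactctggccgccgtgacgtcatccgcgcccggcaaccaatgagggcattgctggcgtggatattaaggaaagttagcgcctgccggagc
Dmrta2: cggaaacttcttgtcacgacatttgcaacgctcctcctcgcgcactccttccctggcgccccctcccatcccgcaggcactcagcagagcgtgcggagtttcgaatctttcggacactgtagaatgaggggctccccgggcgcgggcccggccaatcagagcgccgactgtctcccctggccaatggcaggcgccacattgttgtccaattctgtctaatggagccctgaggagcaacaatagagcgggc
Nr2f2: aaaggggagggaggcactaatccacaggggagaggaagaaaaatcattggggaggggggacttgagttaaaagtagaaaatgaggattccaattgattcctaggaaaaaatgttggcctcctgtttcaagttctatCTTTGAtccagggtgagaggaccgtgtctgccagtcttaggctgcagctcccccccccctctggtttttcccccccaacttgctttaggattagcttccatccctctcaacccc

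All 8 genes had at least 1 such window, and 11 windows were searched. The Lhx2 window shown above has 72.8% G and C and 25 CpG dinucleotides, the Pax6 window 60.8% and 15, and the Dmrta2 window 61.6% and 19. The Nr2f2 window has 50% and 1 CpG, against a median of 52.4% G and C over 32851 windows of the same length. GGGCGG occurred in 4 of the 11 windows, 1 each of Emx1, Emx2, Lhx2 and Nr2f1, and in 32.7% of all windows. CTTTGA occurred in the Nr2f2 window alone, starting at position -114 from the start of transcription, and in 13.8% of all windows. TAATTA (a homeodomain core) and AGGTCA (a nuclear receptor half-site) occurred in 0 of the 11, against 4.84% and 14% of all windows. Neighbouring GGGCGG matches overlap each other in the windows of Emx1 and Emx2, and no match overlaps one of another motif.

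Genes expressed in the telencephalon were read first. All 10 genes of this list were present in every sample. Some of them, such as Sox1 and Sox2, are not restricted to the telencephalon, so their presence cannot verify the labelled tissue. The summed level of the 10 lay between 10.69 and 11.22 on the log2 CPM scale (each gene's share of its library scaled to a fixed total, with a small offset before the log). That sum was 10.95 and 10.69 in null 2 and 11, below their wild types at 11.12 and 11.22, and 10.76 to 10.999 in missense, below their wild types at 11.08 to 11.16. Of the 10 genes, 8 were lower in null (median -0.28) and 9 in missense (median -0.17), with 0 called in limma and 4 lower at an unadjusted p under 0.05 in each. Their part in the values of the 8 factors was not tested. Polr1a stood at 4.99 and 4.82 in null 2 and null 11 and at 5.38 in each wild type of the null set (difference -0.48, SE 0.20, n = 2 against 2, limma adjusted p = 0.563). It stood at 5.09, 5.66 and 5.79 in missense 3, 6 and 7, and between 5.51 and 5.64 in the wild types of that set. The sequencing depth is unknown, because the deposited values carry only each gene's share of its library.

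None of the 8 factors passed the test in either mutant. In the null samples the differences from wild type ran from -0.09 for Emx1 to 0.50 for Dmrt3, with 7 genes higher and 1 lower. In the missense samples they ran from -0.16 for Emx1 to 0.08 for Pax6, with 5 higher and 3 lower. In the null comparison limma called 0 of 8 at an adjusted p under 0.05, against 0.162% of all genes, and 1 of 8 was higher at an unadjusted p under 0.05, against 5.04% of all genes higher and 3.28% lower. In the missense comparison 0 of 8 passed, against 0.0203% of all genes, and 0 of 8 had an unadjusted p under 0.05, against 3.2% of genes higher and 2.33% lower. Of all genes, 54.6% were higher and 45.3% lower in null, and 54% were higher and 46% lower in missense.

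The median log2 difference of the 8 was 0.13 in null and 0.02 in missense, beside 0.03 and 0.02 over all genes. The missense median changed sign with 1 sample left out: it was -0.12 without wild type 2 and -0.073 without missense 3, each time with 6 of 8 lower. Leaving out wild type 4 gave -0.0073, with 4 of 8 lower. With all samples kept, the missense median was -0.025 with sample weights and -0.0091 after median centring, each with 5 of 8 lower. The medians of all genes there were 0.011 and -0.0073. The missense median of the 8 stayed above 0 without the title-number term (0.011) and after quantile normalization (0.0046). The median size of the difference, whatever its sign, was 0.13 in null and 0.07 in missense, beside 0.18 and 0.14 over all genes. All 8 also varied less within groups than the median gene (residual SD 0.13 to 0.20, beside 0.22). Genes of like level or spread were not compared, so the 8 were not shown to change less than such genes.

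**Figure D1:**
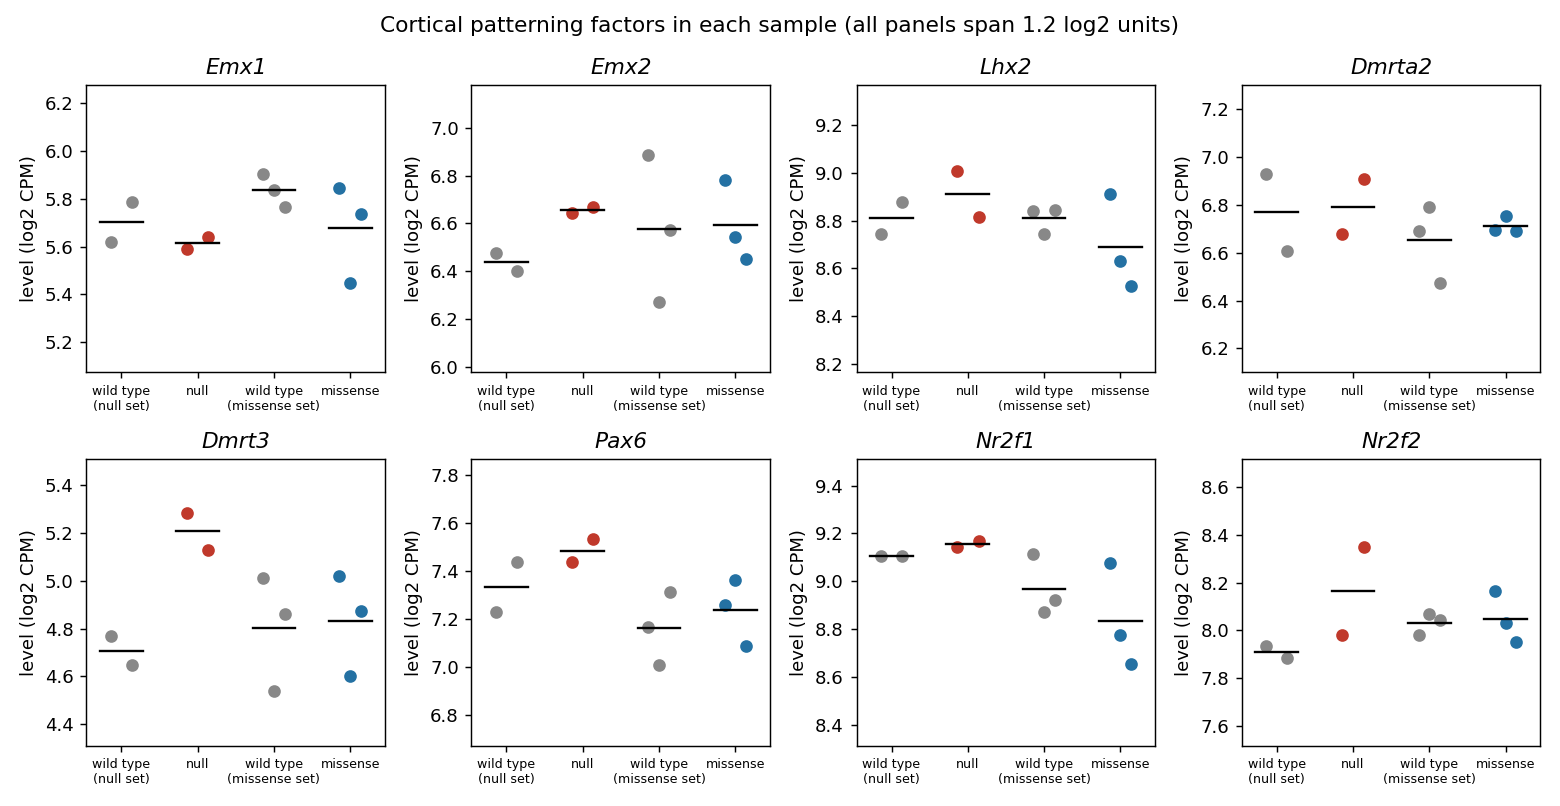
Level of each factor in each of the 10 samples (vertical axis, log2 CPM; every panel spans the same width), with 1 point a sample and a bar at the group mean. Dmrt3 has null samples at 5.28 and 5.13 above both of their wild types, at 4.77 and 4.65, while every missense group overlaps its wild types.

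Dmrt3, a doublesex-related factor of the medial cortex, had the largest difference of the 8 in null. Null 2 stood at 5.28 and null 11 at 5.13, against 4.77 and 4.65 in wild types 1 and 3. Both null samples were higher than both wild types. The means were 5.21 ± 0.11 (SD, n = 2) and 4.71 ± 0.087 (SD, n = 2), a difference of 0.50 (SE 0.19, 95% interval 0.07 to 0.92), or 1.41-fold, with a limma adjusted p of 0.503. Before adjustment over all genes the interval leaves out 0 (limma, unadjusted p = 0.026), and the gene ranks 762 of 14796 by p. The difference was 0.42 without null 2 and 0.44 without wild type 3, with unadjusted limma p-values of 0.120 and 0.103. Missense 3, 6 and 7 had Dmrt3 at 5.02, 4.60 and 4.87, and wild types 1, 2 and 4 of that set had it at 5.01, 4.54 and 4.86. Those groups overlapped throughout, and the difference was 0.03 (95% interval -0.32 to 0.38). The missense difference minus the null difference was -0.47 (SE 0.25, 95% interval -1.02 to 0.08, limma adjusted p = 1), so a difference between the alleles was not shown.

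Dmrta2, also called Dmrt5, is the paralogue of Dmrt3 that acts with it upstream of Emx2. Its levels were 6.68 and 6.91 in null 2 and null 11 and 6.93 and 6.61 in wild types 1 and 3. The wild types lay at the outer ends, with the null samples between them. The difference was 0.02 (SE 0.14, 95% interval -0.29 to 0.34), with values of -0.14 without wild type 3 and 0.19 without wild type 1. Its levels of 6.70, 6.75 and 6.69 in missense 3, 6 and 7 lay within the wild-type values of 6.69, 6.79 and 6.47 (difference 0.06, 95% interval -0.19 to 0.32).

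Emx2 and Emx1 are homeobox factors, of which Emx2 sets the size of caudal and medial cortical areas. Emx2 stood at 6.64 and 6.67 in null 2 and 11 and at 6.48 and 6.40 in wild types 1 and 3. The null samples were higher without overlap, by 0.22 (SE 0.18, 95% interval -0.17 to 0.61, limma adjusted p = 0.810). In the missense set the wild types alone spanned 6.27 to 6.89, which took in missense 3, 6 and 7 at 6.78, 6.54 and 6.45 (difference 0.01, 95% interval -0.30 to 0.33). Emx1 overlapped between groups in both sets. It stood at 5.59 and 5.64 in the null samples and at 5.62 and 5.79 in their wild types, a difference of -0.09 (95% interval -0.41 to 0.23), which was -0.0036 without wild type 3 and -0.17 without wild type 1. Its level was 5.85, 5.45 and 5.74 in missense 3, 6 and 7, with missense 6 the lowest of all 10 samples, against 5.90, 5.84 and 5.76 in wild types 1, 2 and 4 (difference -0.16, 95% interval -0.42 to 0.10). Without missense 6 the Emx1 difference was -0.043, and without missense 3 it was -0.24.

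Lhx2, a LIM-homeobox selector of cortical identity, had overlapping groups in both sets. Its levels were 9.01 and 8.82 in null 2 and 11 and 8.74 and 8.88 in their wild types (difference 0.10, SE 0.12, 95% interval -0.17 to 0.37). That difference was 0.0046 without null 2 and 0.19 without null 11. Lhx2 was at 8.91, 8.63 and 8.53 in missense 3, 6 and 7, against 8.84, 8.74 and 8.84 in wild types 1, 2 and 4 (difference -0.12, SE 0.10, 95% interval -0.34 to 0.10). Missense 6 and 7 were below every wild type and missense 3 was above every one, so samples of that group fell on both sides. Without missense 3 the Lhx2 difference was -0.23 (limma adjusted p = 0.692), and without missense 7 it was -0.038.

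Pax6, the paired-box factor of the lateral cortex, stood at 7.44 and 7.53 in null 2 and 11 and at 7.23 and 7.44 in wild types 1 and 3. Null 2 and wild type 3 stood at the same level, so the groups overlapped. The difference was 0.15 (SE 0.13, 95% interval -0.13 to 0.44, limma adjusted p = 0.820), with values of 0.048 without wild type 1 and 0.26 without wild type 3. Pax6 in missense 3, 6 and 7 was at 7.26, 7.36 and 7.09, and in wild types 1, 2 and 4 at 7.17, 7.01 and 7.31, a difference of 0.08 (95% interval -0.16 to 0.31).

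Nr2f1 and Nr2f2 are the COUP-TF orphan nuclear receptors. Nr2f1 sets the border between frontal and more caudal cortex. In null 2 and 11 it stood at 9.14 and 9.17 and in both of their wild types at 9.11, higher without overlap but by only 0.05 (95% interval -0.24 to 0.34). Nr2f1 was at 9.08, 8.78 and 8.65 in missense 3, 6 and 7, against 9.11, 8.87 and 8.92 in the wild types (difference -0.13, SE 0.11, 95% interval -0.37 to 0.10). Missense 6 and 7 were again the lowest of their set, as they were for Lhx2. Without missense 3 the Nr2f1 difference was -0.25 (limma adjusted p = 0.690).

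Nr2f2 is a factor of the caudal telencephalon and caudal ganglionic eminence, and also of veins and mesenchyme. It stood at 7.98 in null 2 and 8.35 in null 11, against 7.94 and 7.89 in wild types 1 and 3. Null 11 stood apart from the other 3 samples of its set. The difference was 0.25 (SE 0.12, 95% interval -0.01 to 0.52, limma adjusted p = 0.633), with values of 0.07 without null 11 and 0.44 without null 2 (limma adjusted p = 0.946 and 0.354). Nr2f2 levels in missense 3, 6 and 7 were 8.17, 8.03 and 7.95 and in wild types 1, 2 and 4 they were 7.98, 8.07 and 8.04 (difference 0.02, 95% interval -0.20 to 0.24).

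Null 11 was also high in markers of endothelium and mesenchyme, where Nr2f2 is known to be active. The summed level of 8 endothelial genes was 8.33 in null 11, 7.92 in null 2 and 7.78 to 7.88 in their wild types, in log2 summed CPM. All 8 endothelial genes were higher in null, and 1 had an unadjusted p under 0.05 in limma. The summed level of 12 mesenchyme and meninges genes was 11.85 in null 11, 11.42 in null 2 and 10.87 to 11.11 in their wild types. All 12 were higher in null, and 6 had an unadjusted p under 0.05. In missense 12 of 12 mesenchyme genes were also higher (median 0.33, 0 called, 2 at an unadjusted p under 0.05 in limma) and 2 of 8 endothelial genes (median -0.05), beside the Nr2f2 difference of 0.02. In missense 3, 6 and 7 the endothelial sums were 7.96, 7.90 and 8.15 and the mesenchyme sums 11.41, 11.29 and 11.73. Missense 7 thus had the highest of both sums in its group and the lowest Nr2f2, 7.95. In wild types 1, 2 and 4 of that set the sums were 7.97, 8.03 and 8.09, and 11.35, 10.95 and 11.67. The part of endothelium and mesenchyme in the Nr2f2 values was not tested. Each gene of both lists reached 1 CPM in at least 1 of the 10 samples.

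**Figure D2:**
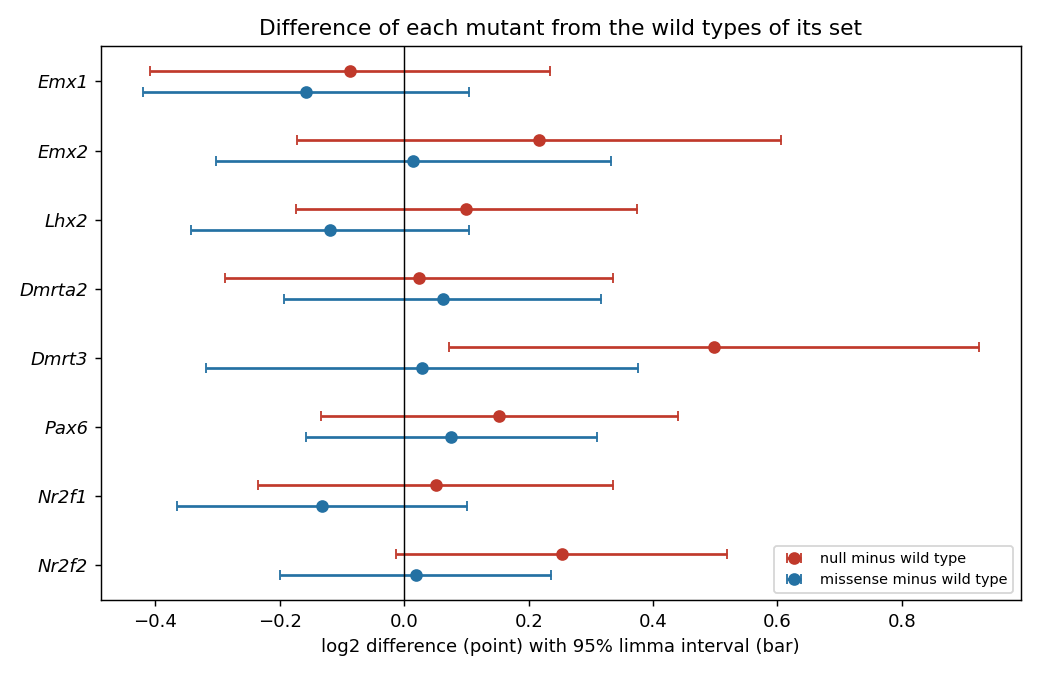
Log2 difference of each factor between null (red) or missense (blue) and the wild types of its set, with the 95% limma interval as a bar. The interval of Dmrt3 in null, 0.07 to 0.92, is the one of the 16 that leaves out 0, before adjustment over all genes.

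Over both comparisons, 4 of the 8 genes had null samples that did not overlap their wild types, all higher: Emx2, Dmrt3, Nr2f1 and Nr2f2. Of all genes, 22.9% were higher without overlap and 14.8% lower, since 2 samples against 2 separate often. In missense 0 of the 8 separated, against 6.02% of genes higher and 4.89% lower. An exact 2-sided permutation test gave p = 0.333 for each of the 4 separated genes, the smallest value that 2 against 2 allow, and 3 against 3 cannot go below 0.1. The exact permutation p-values of the missense comparison ran from 0.3 for Emx1 to 1 for Emx2.

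The 95% limma intervals were also expressed as folds. For Lhx2 in missense the interval as a fold was 0.789 to 1.07, and for Emx1 in null 0.754 to 1.18. For Pax6 it was 0.911 to 1.36 in null and 0.896 to 1.24 in missense. The widest was that of Dmrt3 in null, 1.05 to 1.90. All the others hold a fold of 1.

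The mean of both mutant changes, each against its own wild types, gave narrower intervals. Limma called 0 of 8 genes, against 0.27% of all genes, and 0 of 8 had an unadjusted p under 0.05, against 6.7% of genes higher and 4.03% lower. Higher means were found for 5 of 8 and 55.7% of all genes, and lower means for 3 of 8 and 44.3%. Dmrt3 was nearest, at 0.26 (SE 0.12, 95% interval -0.01 to 0.54, adjusted p = 0.494), and Lhx2 lay at -0.01 (95% interval -0.19 to 0.17). Emx1 had a mean of -0.12 (95% interval -0.33 to 0.08) and Nr2f2 of 0.14 (95% interval -0.04 to 0.31). The Nr2f2 mean was 0.043 without null 11 and 0.23 without null 2 (limma adjusted p = 0.896 and 0.389), and the Emx1 mean was -0.065 without missense 6. In the test of missense against null, limma also called 0 of 8 genes, against 0.0135% of all genes, with 0 at an unadjusted p under 0.05, against 1.91% of genes higher and 2.22% lower. In that test 7 of the 8 differences were below 0 and 1 above, and of all genes 51.5% were lower and 48.5% higher. The null and missense comparisons share no sample.

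Between the wild types of the missense set and those of the null set, 0 of 8 genes passed, against 0.0946% of all genes, with 0 at an unadjusted p under 0.05 in limma, against 4.94% of genes higher and 2.43% lower. There 4 of 8 were higher and 4 lower, and of all genes 53.3% and 46.7%. Nr2f2 was the 1 gene of the 8 whose wild types did not overlap, higher in the missense set, against 13.7% of genes higher and 9.76% lower without overlap. Pax6 had the largest difference, -0.17 (95% interval -0.43 to 0.09; -0.067 without wild type 3 and -0.28 without wild type 1 of the null set), and Lhx2 the smallest, -0.002 (95% interval -0.25 to 0.25). For Pax6, Emx1, Dmrta2 and Nr2f1 this difference between wild types was larger in size than the null difference, with which it shares the wild types of the null set.

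The order of the groups differed from gene to gene. For Dmrt3 the means ran from 4.71 in wild types of the null set through those of the missense set and 4.83 in missense to 5.21 in null. For Nr2f1 they ran from 8.84 in missense through 8.97 in wild types of the missense set and 9.11 in those of the null set to 9.16 in null. For Emx1 the order was 5.62 in null, 5.68 in missense, 5.70 in wild types of the null set and 5.84 in those of the missense set. No neighbours in these orders passed the test where they were compared. Levels of different genes were not tested against each other, because the values are not divided by transcript length. The percentiles of level given below rank genes by these values, so they depend on transcript length.

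Samples of 1 group differed by the following amounts. The residual SD within groups ran from 0.13 for Nr2f2 to 0.20 for Emx2, and each was below the median of all genes, 0.22. The smallest stood at the 20.5th percentile of all genes and the largest at the 45.5th. All 8 have mean levels above the median gene, from the 52.1st percentile for Dmrt3 to the 98.5th for Nr2f1, and the range over all 10 samples ran from 0.46 to 0.74, beside a median range of 0.76 over all genes. Emx2 was the most variable, with an SD of 0.31 among the 3 wild types of the missense set and of 0.232 over all 5 wild types, where the median gene had 0.223.

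Ratios of genes within a library do not depend on how libraries were scaled. The log2 ratio of Dmrt3 to its paralogue Dmrta2 was -1.40 and -1.78 in null 2 and 11 and -2.16 and -1.96 in wild types 1 and 3. The null samples were higher in this ratio, without overlap. In missense the ratio had a mean of -1.88 ± 0.25 (SD, n = 3), against -1.85 ± 0.35 (SD, n = 3) in wild type.

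The ratio of Emx2 to Emx1 was 1.05 and 1.03 in null 2 and 11 and 0.86 and 0.61 in their wild types, again higher in null without overlap. In missense it lay between 0.71 and 1.10 and in wild type between 0.43 and 0.98, with overlap. The ratio of Emx2 to Pax6, which have opposite gradients across the cortex, was -0.79 and -0.86 in null 2 and 11, within the wild-type values of -0.75 and -1.04. Its missense values, -0.82 to -0.48, overlapped the wild-type values of -0.74 to -0.28. The ratio of Dmrt3 to Pax6, likewise opposite in gradient, was -2.16 and -2.40 in null 2 and 11 and -2.46 and -2.79 in wild types 1 and 3, higher in null without overlap. In missense it lay between -2.76 and -2.21, overlapping the wild types at -2.47 to -2.16. The ratio of Nr2f2 to Nr2f1 was -1.16 in null 2 and -0.82 in null 11, against -1.17 and -1.22 in the wild types. It was higher in null without overlap, though barely so for null 2. Its values were -0.91, -0.75 and -0.70 in missense 3, 6 and 7. They overlapped those of wild types 1, 2 and 4, at -1.13, -0.80 and -0.88. These ratios were chosen after the values had been seen and carry no test. Dmrt3, Emx2 and Nr2f2 were each higher in null without overlap by themselves. So were 22.9% of all genes, with 14.8% lower without overlap. The share of gene pairs whose ratio separates was not computed.

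**Figure D3:**
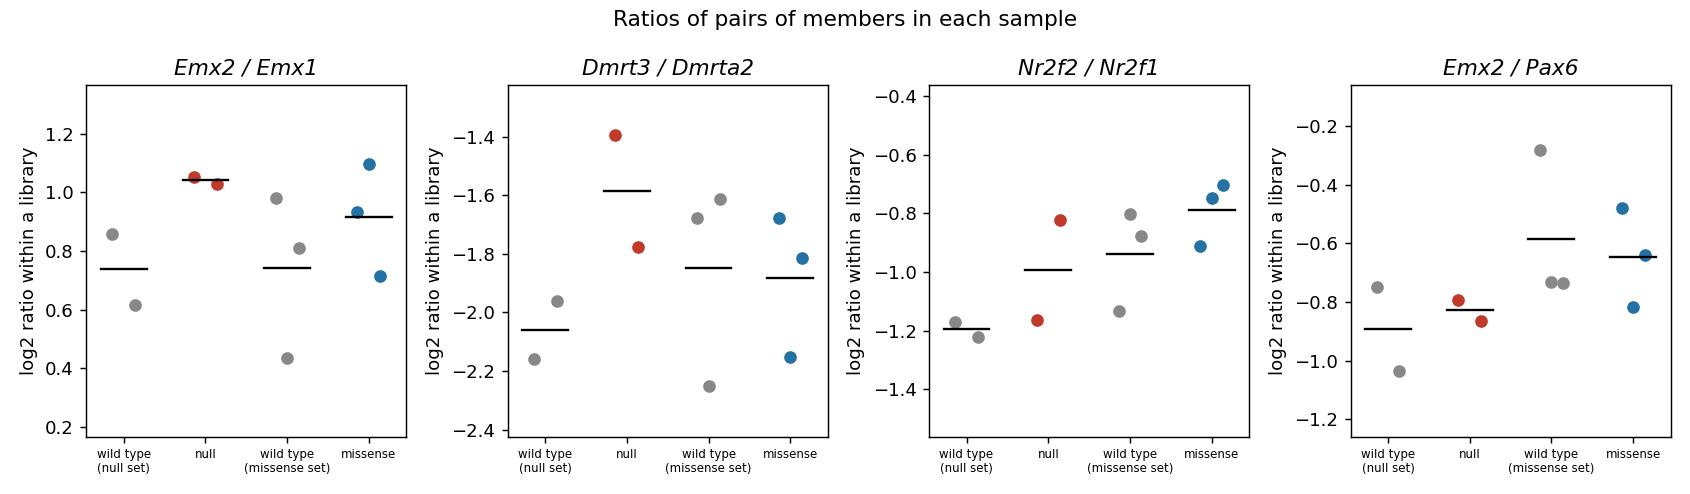
Log2 ratio of pairs of factors within each library (vertical axis, every panel spans the same width), with 1 point a sample and a bar at the group mean. The null samples lie above their wild types for Dmrt3 to Dmrta2 and Emx2 to Emx1, and between them for Emx2 to Pax6.

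Correlations among the 8 over the 10 samples, after subtracting the mean of each set, are given as a description, since the samples share their set, genotype and library scaling. Lhx2 and Nr2f1 had the highest Pearson r, 0.81, and Emx2 and Dmrt3 the next, 0.79. Emx2 and Nr2f1 had 0.73. Paralogues were less alike, with 0.13 for Emx1 and Emx2, -0.14 for Dmrta2 and Dmrt3, and 0.31 for Nr2f1 and Nr2f2. The lowest was -0.49, for Lhx2 and Dmrta2.

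Among 10680 other genes of at least the 25th percentile of level, those most like each factor by the same measure were as follows. For Dmrt3 they were Bcap29 (r 0.98) and Nfatc1 (0.95), and for Lhx2 they were Map3k7 (0.97) and Zfp131 (0.95). For Emx2 they were Zfp229 and Fam129a (0.93 each), for Pax6 Dnajc10 (0.95) and Me1 (0.93), and for Nr2f1 Zbtb6 (0.95) and Cyp20a1 (0.94). For Emx1 they were Rdh14 (0.91) and Bhlhe22 (0.91), of which Bhlhe22 is a factor of cortical neurons. For Dmrta2 they were Rnf150 (0.93) and Kank3 (0.92), and for Nr2f2 Zfp944 (0.92) and Fezf2 (0.90), a factor of deep-layer neurons. Each was picked as the highest among those genes over the same 10 samples.

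Other pallial transcription factors were read beside the 8. Of 24 genes in this list, 16 were lower and 8 higher in null, with a median of -0.18, and limma called 0, while 1 was higher and 3 were lower by unadjusted p under 0.05. Id4 had a difference of -0.40 in null and Meis2, a factor of striatal and lateral territories, of -0.80. In missense 20 of the 24 were lower, with a median of -0.15 and 0 calls in limma (5 lower at an unadjusted p under 0.05), among them Tcf4 at -0.33 and Nr2e1 at -0.32.

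Signals of the sources that pattern the cortex were read in the same way. Of 18 Wnt, Bmp and target genes listed for the hem, 18 were higher in null (median 0.80), 16 of them at an unadjusted p under 0.05 in limma. The 1 gene called was Wnt8b at 1.08 (SE 0.14, limma adjusted p = 0.0220). That call was lost on leaving out any of the 4 samples of the null set (Wnt8b 0.98 to 1.17, limma adjusted p 0.0552 to 0.175). In missense 17 of 18 were higher, with a median of 0.27 and 0 calls (5 higher at an unadjusted p under 0.05). Some of the 18 are not restricted to the hem, and 12 of 12 mesenchyme genes were also higher in each mutant. The part of mesenchyme in the hem list was not tested. Rspo3, a Wnt agonist, had a difference of 0.83 in null and Bmp6 of 1.46. Emx2, Dmrta2 and Dmrt3 are known to respond to hem signals. Their own differences were 0.22, 0.02 and 0.50 in null and 0.01, 0.06 and 0.03 in missense. The part of hem signals in these values was not tested.

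Of 17 genes of anterior Fgf signalling, 8 were higher and 9 lower in null, with a median of -0.01, and 13 were higher in missense, with a median of 0.17. Limma called 0 in each, with 1 higher at an unadjusted p under 0.05 in each: Fgfr2, a receptor, at 0.52 in null and Dusp6, a feedback phosphatase, at 0.45 in missense. Fgf8, the ligand of the anterior source, had a difference of 0.93 (SE 0.44) in missense. Of 6 antihem genes, 3 were higher and 3 lower in null, with 0 called and 1 at an unadjusted p under 0.05, Dbx1 at 1.28 (SE 0.48). In missense 0 of the 6 were called, with 0 at an unadjusted p under 0.05.

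Ventral genes stood on the other side of the border that Pax6 and the Dmrt factors hold. Of 16, 15 were lower in null, with a median of -1.04, and 8 fell, among them Dlx1 (log2 difference -1.38, SE 0.10, limma adjusted p = 0.000369), Gad2 (-1.35) and Lhx6 (-2.50). In the ventral telencephalon list 2 genes were called without null 11 and 1 without wild type 3, Dlx1 being called in both cases while Gad2 and Lhx6 were not. In the 4 samples of the null set alone 0 of the 16 were called, and Dlx1 had an adjusted p of 0.273. In missense 13 of 16 were lower, with a median of -0.29 and 0 calls (5 lower at an unadjusted p under 0.05). Of 13 measured paralogues of the 8 in their families, 9 were higher and 4 lower in null, with 0 called and 2 higher at an unadjusted p under 0.05, Lhx1 at 0.78 (SE 0.21) and Pax7 at 1.48 (SE 0.58). Both are expressed in diencephalon and midbrain. In missense 8 were higher and 5 lower, with 0 called and 0 at an unadjusted p under 0.05.

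Markers of neighbouring eye and diencephalon, where Pax6 and Lhx2 are also active, had a higher summed level in the null samples, though not every gene was higher. The summed level of 18 genes was 9.07 and 9.31 in null 2 and 11, against 8.41 and 8.18 in wild types 1 and 3. Of the 18, 12 were higher and 6 lower (median 0.72), with 0 called in limma. By unadjusted p under 0.05, 8 were higher and 1 lower, Vax1 at -2.36, which had the smallest p of the list. In missense the summed level lay between 8.36 and 8.95, within the wild-type range of 8.18 to 8.98. Microglial genes had a summed level of 6.98 and 6.95 in null and 5.86 to 5.97 in their wild types, with 8 of 8 higher (0 called, 7 at an unadjusted p under 0.05 in limma). In missense their sum was 6.66 to 6.93, above the wild types at 6.21 to 6.46, with 7 of 8 higher (0 called, 5 at an unadjusted p under 0.05). In the mean of both mutant changes 8 of 8 were higher and limma called 2, Cx3cr1 at 0.75 (adjusted p = 0.0464) and C1qb at 1.07 (adjusted p = 0.0488). Both calls were lost on leaving out any of the 10 samples, with adjusted p up to 0.186 for Cx3cr1 and 0.204 for C1qb, each without null 11. Pan-neuronal genes had a summed level of 11.59 and 11.74 in null and 11.81 to 12.02 in wild type, with 6 of 8 lower (0 called, 2 lower at an unadjusted p under 0.05). In missense 8 of 8 were lower (median -0.12, 0 called, 0 at an unadjusted p under 0.05 in limma), and in the mean of both 8 of 8 were lower (0 called, 3 at an unadjusted p under 0.05). The part of these cells in the values of the 8 factors was not tested.

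**Figure D4:**
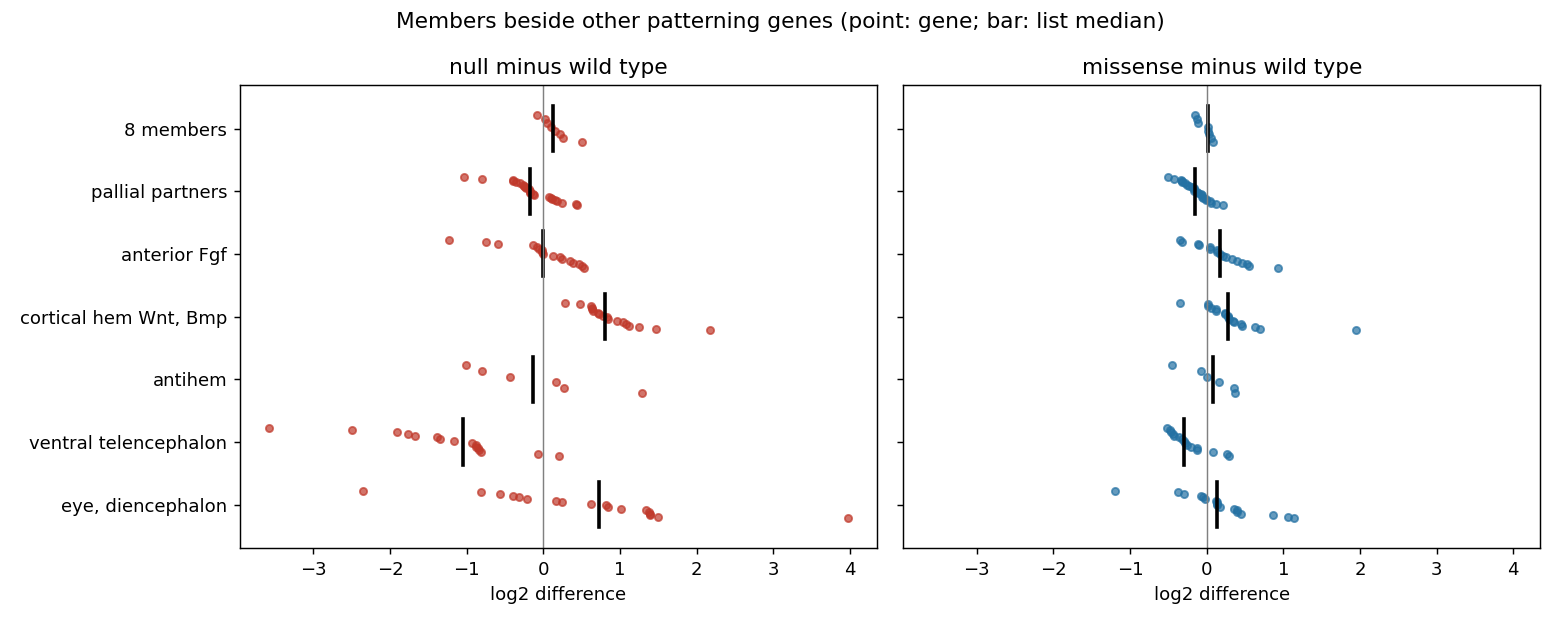
Log2 difference of each gene (point) from wild type in null (left) and missense (right), by list, with the list median as a bar. The 8 factors lie between -0.09 and 0.50 in null, where hem genes have a median of 0.80 and ventral genes of -1.04.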

How the data were processed

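RNA of 10 telencephalon samples was sequenced. The deposited file gives 1 log2 value per gene and sample, which the authors had filtered and normalized, per the file name. From the values these are log2 CPM with a small offset: back-transformed values sum to 1000450 to 1000890 in each sample, and the floor is -3.16. The build is GRCm39, per the submitters' processing notes, while the sources used here do not give the aligner, counter, strand use or filter, so reads of genes antisense to Emx2 and Pax6 may be counted with them. Depth is unknown, and 1 row without a name was left out. The 8 factors and all lists were chosen with earlier results of these data known.

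A linear model with 4 groups (genotype by title number) was fitted to 14796 genes with limma 3.58.1 in R 4.3.3 (moderated variance with a trend on level, 6 residual and 4.83 prior degrees of freedom), 2-sided. Calls are genes with an adjusted p under 0.05 (Benjamini-Hochberg, all genes). The fit was tested on simulated data. Alternatives were no title-number term, median centring, quantile normalization, a filter at the 25th percentile of level, log2(CPM + 1), no trend, robust variances, sample weights, each set by itself and the omission of each sample. Named genes are the 8, Polr1a, up to 3 of each list by smallest p in each comparison, and the 2 most correlated with each factor. Tables used the R package data.table (version 1.17.8), and figures Python 3.11.15, pandas 2.3.3 and matplotlib 3.10.9. Promoter windows are RefSeq's (GRCm38.p6), and exons are from GENCODE of the same build. The result of 1 listed gene is not reported here.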

Additional observations from a re-analysis of the deposited data

Results flagged for a closer look

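Dlx1, a homeobox gene of ventral progenitors, had a null difference of -1.38 and a missense difference of -0.32, and the difference between these passed the test of the alleles against each other (1.06 on the log2 scale, limma adjusted p = 0.0322, n = 2 against 2 and 3 against 3). Its adjusted p ran from 0.00108 to 0.184 over the alternatives, with differences of 0.97 to 1.16, and the call was lost, among others, after median centring (0.0566) and without null 2 (0.0811), null 11 (0.0626) or wild type 3 of the null set (0.0980). None of the 8 cortical factors met that test.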

How the results depend on the processing

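Over 20 alternatives and 728 values of the 8 factors, limma gave 0 calls, and the counts of factors called stayed at 0 in all 5 comparisons. Dmrt3 kept its direction in null in all 19 alternatives, at 0.42 to 0.57. The lowest limma adjusted p was 0.321, without a title-number term. Many of the 19 left this difference at 0.50 by their design, such as no trend, robust variances and omissions from the missense set. The lowest value, 0.42, came from leaving out null 2. Nr2f2 in null ran from 0.07 to 0.44. Signs changed in 40 of the 728 values, 29 of them on leaving out a sample, and the cause was not tested. Many of the 728 could not change sign. No trend, robust variances, the filter on level and each set by itself left the differences as they were. An omission from 1 set also left the mutant difference of the other set as it was. The share of signs changed is therefore no measure of how stable they are.

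Genes called in null numbered 24, against 59 without a title-number term, 6 without the trend and 0 in the 4 samples of the null set alone (1101 at an unadjusted p under 0.05 in limma), and 2 (without null 11) to 23 on leaving out a sample. In missense they numbered 3, and 2 to 10 (without wild type 2) on leaving out a sample. For missense against null they numbered 2, against 9 without a title-number term, 1 after median centring and 0 without the trend (646 at an unadjusted p under 0.05 in limma), and 1 to 10 on leaving out a sample. For the mean of both they numbered 40, against 13 without the trend and 10 to 29 on leaving out a sample. Between wild types they numbered 14, against 8 with the filter on level and 7 to 21 on leaving out a sample.

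Signs changed without the title-number term in missense against null for Emx1 (0.061) and Dmrta2 (-0.079). After median centring they changed for Dmrta2 in null (-0.0099) and in missense for Emx2 (-0.011) and Nr2f2 (-0.0071). After quantile normalization they changed for Dmrt3 in missense (-0.0017) and for Lhx2 in the mean (0.013) and between wild types (0.028). With sample weights they changed in missense for Emx2 (-0.034) and Dmrt3 (-0.016) and between wild types for Lhx2 (0.011).

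On leaving out a sample, Dmrta2 in null ran from -0.14 to 0.19. In missense the ranges were -0.14 to 0.17 for Emx2, -0.027 to 0.13 for Dmrta2, -0.10 to 0.14 for Dmrt3, -0.0026 to 0.15 for Pax6 and -0.040 to 0.067 for Nr2f2. In missense against null they were -0.16 to 0.044 for Emx1, -0.12 to 0.20 for Dmrta2 and -0.18 to 0.027 for Pax6. In the mean they were -0.065 to 0.038 for Lhx2, -0.038 to 0.12 for Dmrta2 and -0.10 to 0.0045 for Nr2f1. Between wild types they were -0.016 to 0.29 for Emx2, -0.069 to 0.066 for Lhx2, -0.28 to 0.044 for Dmrta2 and -0.0086 to 0.23 for Dmrt3. A sample left alone in its group was assumed to vary like the others. No paired analysis was possible because the labels give no litter or pairing of samples.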
